A study of Mus musculus with 6 samples.

Results

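The NRF2 antioxidant genes described here are 10 genes of the oxidative stress pathway: the transcription factor gene Nfe2l2 (NRF2), its inhibitor Keap1, and 8 genes widely used as readouts of NRF2, namely Txnrd1, Txn1, Prdx1, Srxn1, Gclc, Gclm, Hmox1 and Nqo1. They are taken by name and not by a threshold on these values, although the set was drawn up with earlier results of these data known, and all 10 were found among the 23420 genes of the expression files. RNA-seq was done on B cells that were purified with beads from the spleens of 3 mice, wild-type and 7 to 11 weeks old, of the common inbred strain BALB/c. Cells (10 M, at 10 M per ml) were cultured for 4 h with 10 µg/ml of the oligonucleotide CpG ODN 1826, a ligand of the endosomal DNA receptor TLR9 (CpG-stimulated, n = 3), or without it (unstimulated, n = 3). In each group replicates 1 and 2 were labelled female and replicate 3 male, and no allele, deletion or transgene was given for either group. The labels do not state whether each replicate is 1 mouse, so p values measure the spread between these samples. In the study these samples served to define the genes that TLR9 ligation induces in B cells.

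NRF2 is a basic leucine zipper factor. KEAP1 binds it and presents it to a CUL3 ubiquitin ligase, so that NRF2 protein is normally degraded soon after it is made. Oxidants and electrophiles modify cysteines of KEAP1, NRF2 then accumulates, pairs with a small MAF protein and binds the antioxidant response element (ARE) near genes for thioredoxin, glutathione, haem and quinone metabolism. BACH1 and BACH2 pair with the same small MAF proteins and repress from such elements, and BACH2 is best known in B cells for holding back plasma cell differentiation. Because NRF2 is controlled largely as a protein, the transcripts measured here do not give its activity.

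The promoters were read first, since the ARE is the feature by which these genes are usually grouped. Sequences from 250 bases before to 50 bases after the transcription start were taken from RefSeq (GRCm38.p6, the same primary assembly as the mm10 build to which the authors aligned). Entries were present for 8 of the 10 genes; Hmox1 and Gclc were not matched. The ARE core, TGACNNNGC on either strand, was present in 5 of the 8: Nfe2l2, Txnrd1, Srxn1, Gclm and Prdx1. The same core was present in 14.0% of the 27025 genes with an entry, in 17.1% of the 8400 such genes tested below, and in 17 of the 118 genes with an entry in the wider pathway lists described later. Several of the 10 genes are known to readers through their AREs, so this count describes the choice of genes. The AP-1 element, TGANTCA, was present in Srxn1 and Prdx1, in 8.97% of all genes with an entry and in 5.75% of those tested. The stretches that hold these elements are shown, apart from a second AP-1 element of Prdx1 that lies 237 bases before the start, each on the strand of its gene, with the matched bases in capitals.
Nfe2l2, chr2:75704875-75704913, minus strand, ARE core 240 bases before the start, at the far edge of the window: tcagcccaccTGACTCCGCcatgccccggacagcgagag
Txnrd1, chr10:82859094-82859142, plus strand, ARE core in 1 of its 3 listed promoters, 92 bases before that start and on the opposite strand: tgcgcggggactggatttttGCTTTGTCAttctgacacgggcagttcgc
Prdx1, chr4:116685446-116685494, plus strand, ARE core 133 bases before the start, on the opposite strand, sharing its last 7 bases with an AP-1 element: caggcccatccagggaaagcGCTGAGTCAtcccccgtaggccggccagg
Gclm, chr3:122245403-122245451, plus strand, ARE core 134 bases before the start, on the opposite strand: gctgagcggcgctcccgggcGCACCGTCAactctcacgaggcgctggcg
Srxn1, chr2:152105542-152105570, plus strand, ARE core beginning at base 29 after the start, on the opposite strand: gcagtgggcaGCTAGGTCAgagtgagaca
Srxn1, chr2:152105412-152105495, plus strand, AP-1 elements 102 and 45 bases before the start: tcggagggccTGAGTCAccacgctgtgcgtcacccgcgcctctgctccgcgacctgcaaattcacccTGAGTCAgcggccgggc

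The elements thus lay upstream of the start in Nfe2l2, Txnrd1, Prdx1 and Gclm. In Srxn1 the AP-1 elements lay upstream of the start and the match to TGACNNNGC downstream of it. Other spellings of the ARE, which may overlap AP-1 elements, were not searched. A match of letters is not a measurement of binding, and no binding data were used here. Keap1, Nqo1 and Txn1 had neither element in this window, which says nothing of sequence outside it.

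Values are log2 CPM (counts per 1 M reads) as the authors deposited them. They stand on a common scale of 17.8 M reads, on which a gene without reads most often sits at -5.15, 3 reads at -2.34 and 10 reads at -0.76. For a single gene these levels and the read worths given below are approximate, since the values carry a shift by replicate number, described under processing. Genes above the 10-read level in at least 3 samples (11233 genes) were compared between the groups with limma, and a gene was called at a Benjamini-Hochberg adjusted p under 0.05 over all of them. CpG moved most of the transcriptome, with 37.6% of tested genes called higher and 36.7% called lower. Markers of B cells (8 of 8 above the 10-read level) summed to 9640 to 11600 CPM in stimulated and 12700 to 13800 CPM in unstimulated samples, and the 6 T cell markers to 124 to 141 and 71.1 to 91.6 CPM, of which Lck was the only one above the 10-read level in all 6 samples and Cd3e, Cd4 and Cd8a were under the 3-read level in all 6. The 4 NK cell markers summed to 0.72 to 1.33 CPM with CpG and 0.123 to 0.134 CPM without. Ncr1, Nkg7 and Gzma were under the 3-read level in all 6 samples, and Klrb1c stood at -0.84, 0.23 and 0.23 log2 CPM with CpG and under -4 log2 CPM without. Erythroid markers were high in both replicate 2 samples (4920 CPM with CpG, 3860 CPM without) and 385 to 614 CPM in the other 4. The 4 plasma cell markers summed to 468 to 602 CPM with CpG and 828 to 1180 CPM without. Most of this sum was Igj, at means of 8.8 log2 CPM with CpG and 9.6 without. Igj, Sdc1 and Xbp1 were lower with CpG without overlap. In Prdm1 the groups overlapped, at means of 3.91 log2 CPM with CpG and 4.03 without. The part of these differences in the results below was not tested. Fewer cells of a type and less RNA per cell cannot be told apart in bulk samples.

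Of the 10 genes, 8 passed the filter. With CpG, 5 were called higher (Txnrd1, Prdx1, Txn1, Gclm and Gclc), 2 were called lower (Nfe2l2 and Keap1), and Hmox1 was not called. The genes called higher encode the thioredoxin chain and the first enzyme of glutathione synthesis, and those called lower encode the factor and its inhibitor. Only Txnrd1 passed a log2FC of 1, as 15.8% of tested genes did, and none fell below -1, against 15.3% of tested genes. The median log2FC of the 8 was 0.48, against 0.0033 over all genes tested. The groups did not overlap in the 5 genes that were higher and in the 2 that were lower, as was the case above for 39.1% and below for 38.6% of tested genes. With so much of the transcriptome called, these counts alone do not set the 10 genes apart, and the sizes and the contrasts among them are given in turn.

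**Figure D1:**
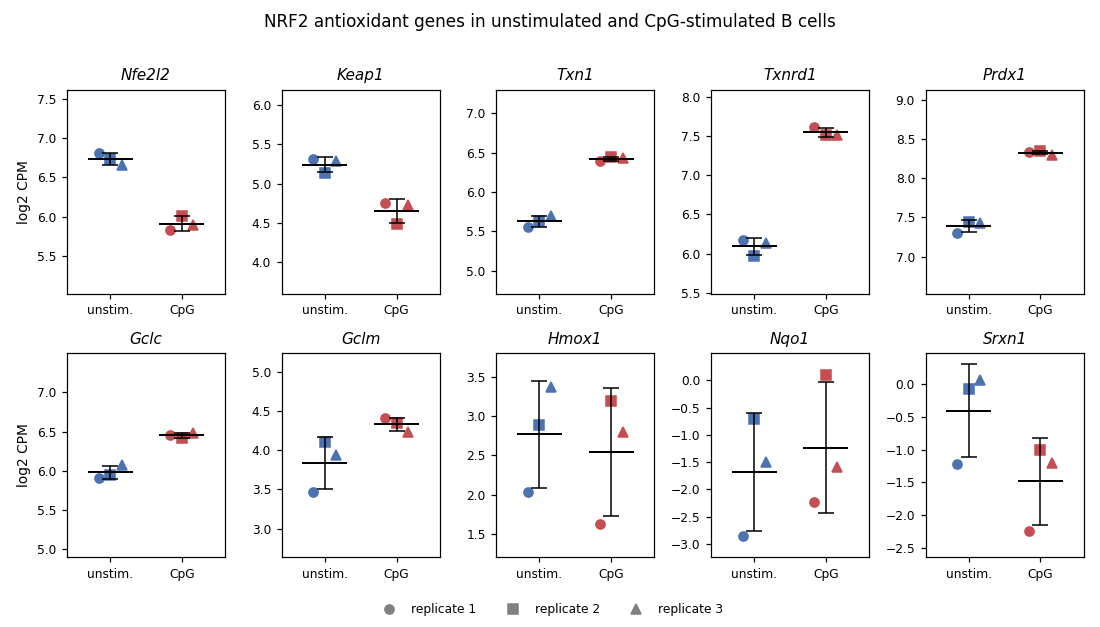
Level of each of the 10 genes in log2 CPM (y axis, a separate range in each panel) in unstimulated (blue) and CpG-stimulated (red) B cells, with 1 symbol per replicate, a long bar at the mean and error bars of 1 SD (n = 3). Nfe2l2 and Keap1 are lower with CpG, Txn1, Txnrd1, Prdx1, Gclc and Gclm are higher without overlap, and Hmox1, Nqo1 and Srxn1 vary by more between replicates than the other genes.

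Nfe2l2 (chr2:75675513-75704641, minus strand) encodes NRF2. Its level was 5.83, 6.01 and 5.89 log2 CPM in stimulated replicates 1 to 3 and 6.80, 6.74 and 6.66 log2 CPM in unstimulated replicates 1 to 3. All stimulated samples were below all unstimulated ones. The log2FC was -0.82 (SE 0.07, 95% interval -0.98 to -0.66, adjusted p = 3.03e-06 by limma), a level 1.77-fold higher in unstimulated cells. By size of log2FC it ranked 2192 from the lowest of 11233 genes.

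Keap1 (chr9:21229730-21239361, minus strand) encodes the adaptor that marks NRF2 for degradation. It stood at 4.75, 4.48 and 4.72 log2 CPM with CpG and at 5.31, 5.13 and 5.29 log2 CPM without, again with no overlap. The log2FC was -0.59 (SE 0.10, 95% interval -0.81 to -0.38, adjusted p = 0.000274 by limma). The log2 ratio of Nfe2l2 to Keap1 within a sample was 1.26 ± 0.24 with CpG and 1.49 ± 0.12 without (SD, n = 3), a difference of -0.23 with an overlap between the groups, which was -0.41, -0.08 and -0.20 between samples of the same number (exact two-sided permutation p = 0.3, where 3 against 3 cannot go below 0.1). The ratio was thus lower with CpG in all 3 same-numbered pairs, but the test of the groups did not separate it from the spread between replicates. An antisense gene, Gm16754, overlaps Keap1 exons and has no row in the files, and the counting was not stated to use strand.

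In the thioredoxin system, TXNRD1 uses NADPH to reduce thioredoxin, thioredoxin reduces peroxiredoxins, and peroxiredoxins remove hydrogen peroxide. All 3 cytosolic genes of this chain among the 10 rose with CpG. Txnrd1 (chr10:82833951-82897712, plus strand) had 7.61, 7.51 and 7.50 log2 CPM with CpG and 6.17, 5.97 and 6.14 log2 CPM without. The log2FC of 1.45 (SE 0.07, 95% interval 1.29 to 1.61, adjusted p = 7.60e-08 by limma) is a 2.73-fold rise, rank 892 from the highest. It was the largest change among the 8 tested genes.

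Prdx1 (chr4:116685544-116700822, plus strand), a peroxiredoxin that reduces hydrogen peroxide, was at 8.33, 8.35 and 8.30 log2 CPM with CpG and 7.30, 7.45 and 7.43 log2 CPM without. Its log2FC was 0.93 (SE 0.06, 95% interval 0.80 to 1.07, adjusted p = 4.03e-07 by limma), a 1.91-fold rise. Txn1 (chr4:57943373-57956411, minus strand), the cytosolic thioredoxin, was at 6.40, 6.45 and 6.43 log2 CPM with CpG and 5.56, 5.63 and 5.70 log2 CPM without. Its log2FC was 0.80 (SE 0.06, 95% interval 0.65 to 0.94, adjusted p = 1.84e-06 by limma), a 1.74-fold rise. The SD between stimulated replicates was 0.03 on the log2 scale in both genes. Genes such as Txn1 and Prdx1 have processed copies in the genome, and how reads shared with copies were counted is not given in the sources used here.

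The reductase rose more than its substrate. The within-sample log2 ratio of Txnrd1 to Txn1 was 1.21, 1.06 and 1.08 with CpG and 0.61, 0.34 and 0.44 without. The means of 1.12 ± 0.08 and 0.46 ± 0.14 (SD, n = 3) differed by 0.65 with no overlap, and the exact two-sided permutation p was 0.1, the lowest that 3 against 3 allows.

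Glutathione is made in 2 steps, and the first is carried out by glutamate-cysteine ligase, whose catalytic subunit is GCLC and whose modifier subunit is GCLM. Both subunit genes rose by a similar amount. Gclc (chr9:77754535-77794485, plus strand) was at 6.46, 6.41 and 6.48 log2 CPM with CpG and 5.91, 5.95 and 6.08 log2 CPM without. The log2FC was 0.47 (SE 0.07, 95% interval 0.32 to 0.62, adjusted p = 0.000107 by limma), a 1.39-fold rise.

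Gclm (chr3:122245557-122270732, plus strand) was at 4.40, 4.34 and 4.23 log2 CPM with CpG and 3.46, 4.10 and 3.93 log2 CPM without. The low unstimulated value was that of replicate 1, and the gap between the groups was narrow, from 4.10 to 4.23. The log2FC was 0.49 (SE 0.15, 95% interval 0.16 to 0.83, adjusted p = 0.0131 by limma), a 1.41-fold rise. In the fit with the block and no filter described for Srxn1 below, its adjusted p was 0.0808 by limma, no longer a call. With the block and the filter kept, it was 0.00326 by limma, so the call depended on the filter in the block fit. The log2 ratio of Gclm to Gclc was -2.13 ± 0.11 with CpG and -2.15 ± 0.30 without (SD, n = 3), a difference of 0.02 that was within the spread (exact two-sided permutation p = 1). Gclm exons overlap a pseudogene on the same strand, Gm6061, and a transcript on the other strand, Gm17494, neither of which has a row in the files.

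The smaller changes did not pass a stricter test. Against a log2FC of 0.5 in place of 0, Keap1, Gclc and Gclm were no longer called (adjusted p of 0.361, 1 and 0.873 by limma's treat), which left 3 genes higher and 1 lower.

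**Figure D2:**
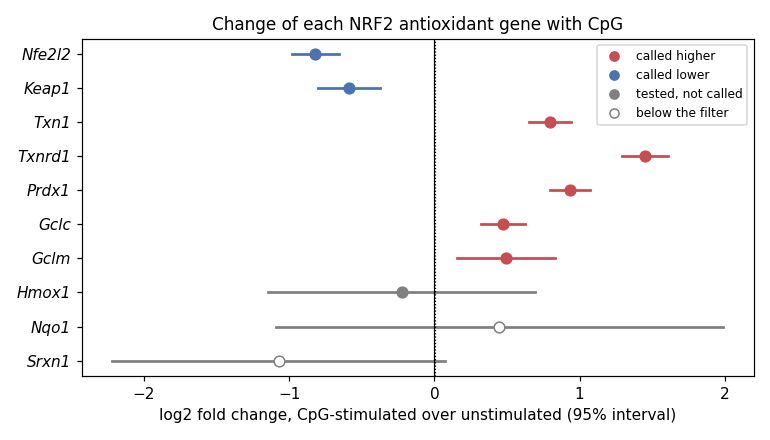
Log2 fold change of each gene, CpG-stimulated over unstimulated (x axis), with its 95% interval from limma; red and blue mark genes called higher and lower, filled grey a tested gene that was not called, and open symbols genes below the filter, taken from a fit without it. The intervals of Txnrd1, Prdx1, Txn1, Gclc and Gclm lie above 0, those of Nfe2l2 and Keap1 below it, and those of Hmox1, Nqo1 and Srxn1 cross it. The dotted line marks the median of all genes tested.

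No change was called in the remaining readouts, whose intervals were wide. Hmox1 (chr8:75093621-75100589, plus strand), haem oxygenase 1, breaks down haem and is strongly inducible in macrophages. It stood at 1.62, 3.20 and 2.80 log2 CPM with CpG and at 2.04, 2.89 and 3.38 log2 CPM without. Replicate 1 was lowest in both groups, the groups overlapped, and the log2FC was -0.23 (SE 0.41, 95% interval -1.14 to 0.69, adjusted p = 0.635 by limma). The interval holds both a 1-log2 fall and a rise of 0.5, so neither was excluded by these samples.

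Values of other cell types were set beside Hmox1. The erythroid marker sum was lowest in replicate 1 of each group as well (385 CPM with CpG, 410 CPM without) and highest in replicate 2 of each. Hmox1 was also highest in replicate 2 with CpG, and in replicate 3 without. Without the replicate 2 samples the log2FC of Hmox1 was -0.49 (adjusted p = 0.38 by limma). Red pulp macrophage markers summed to 6.65 to 9.16 CPM with CpG and 5.23 to 6.71 CPM without. Of these 8 markers Axl alone was above the 10-read level in all 6 samples. None was under the 3-read level in all 6, but the means of C1qa, C1qb, C1qc and Cd163 over the 6 samples were under it. The differences within the sum had opposite signs: Axl had a mean of 2.51 log2 CPM with CpG and 0.65 without, and Cd5l -0.44 and -2.38, whereas Spic had -1.01 and 1.40 and Vcam1 -2.51 and -0.23. Myeloid markers summed to 19.9 to 26.5 CPM with CpG and 12.1 to 17.7 CPM without. Lyz2, Cd68 and Emr1, 3 of the 8, were above the 10-read level in all 6 samples. Fcgr1 was under the 3-read level in all 6. The groups did not overlap in Cd68, at means of 3.41 log2 CPM with CpG and 2.29 without. They did not overlap in Csf1r either, in the other direction, at means of -1.98 log2 CPM with CpG and -0.37 without. In the other genes of this list the groups overlapped. The part of such cells in the Hmox1 values was not tested.

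Nqo1 and Srxn1 were close to the limit of detection and below the filter. Nqo1 (chr8:107388225-107403206, minus strand), a quinone reductase and a standard NRF2 target, stood at -2.22, 0.10 and -1.59 log2 CPM with CpG and -2.85, -0.71 and -1.50 log2 CPM without, the worth of 1.97 to 18.5 reads. The groups overlapped, and the difference of means was 0.45 (95% interval -1.09 to 1.99, adjusted p = 0.62 by limma without the filter).

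Srxn1 (chr2:152105516-152111376, plus strand), sulfiredoxin, repairs peroxiredoxins that have been over-oxidised. It stood at -2.24, -1.01 and -1.20 log2 CPM with CpG and -1.22, -0.07 and 0.07 log2 CPM without, the worth of 3.26 to 18.1 reads. The highest stimulated value was above the lowest unstimulated one, so the groups overlapped. The difference of means was -1.07 (95% interval -2.22 to 0.07, adjusted p = 0.11 by limma without the filter), which does not pass the threshold. Between samples of the same number it was -1.02, -0.93 and -1.26, lower with CpG in all 3 pairs. With the replicate number as a block and no filter, an alternative added after the data were seen, the 95% interval was -1.96 to -0.18 and the adjusted p 0.0567 by limma. Set within each sample against its substrate gene Prdx1, which rose, the log2 ratio of Srxn1 to Prdx1 was -9.81 ± 0.66 with CpG and -7.80 ± 0.63 without (SD, n = 3), with no overlap and a difference of -2.01 (exact two-sided permutation p = 0.1, the lowest possible). The rise of Prdx1 (log2FC 0.93) is part of this difference, so the ratio is not a separate test of Srxn1. On the log2(CPM + 1) scale the difference was -1.31. Both genes carry an ARE core and AP-1 elements in the promoters shown above.

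Levels were compared between genes per kilobase of annotated exon (log2 CPM per kb). In unstimulated cells Prdx1 (5.79) and Txn1 (5.56) were highest, followed by Nfe2l2 (4.81), Gclc (4.07), Txnrd1 (3.27), Keap1 (3.01), Hmox1 (1.96), Gclm (1.18), Srxn1 (-1.91) and Nqo1 (-2.32). With CpG the order was Prdx1 (6.72), Txn1 (6.35), Txnrd1 (4.72), Gclc (4.54), Nfe2l2 (3.99), Keap1 (2.42), Hmox1 (1.73), Gclm (1.67), Nqo1 (-1.87) and Srxn1 (-2.98). Txnrd1 moved from place 5 to place 3 and Nfe2l2 from place 3 to place 5. The ranges of neighbours overlapped for Hmox1 and Gclm and for Nqo1 and Srxn1 in both groups, and for Keap1 and Hmox1 with CpG, so these neighbours were not separated by their spread. Exon length here joins all annotated exons of a gene, from 1051 bases in Txn1 to 7086 bases in Txnrd1. Which transcripts were present was not tested, so the order between genes is approximate for the other neighbours too. Unstimulated B cells thus held transcripts of peroxiredoxin 1 and thioredoxin far above those of the inducible enzymes Nqo1 and Srxn1.

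The tested genes with the profile most like that of Txnrd1, by root mean square difference of centred log2 CPM over the 6 samples, were Psme2 (0.0174), C230052I12Rik (0.0392) and Tsfm (0.0427). For Nfe2l2 they were Phc1 (0.0195), Ttll5 (0.0273) and Uvrag (0.0336). Profiles of 6 samples in 2 groups are mostly set by the log2FC and the replicates, and nothing further is read from them.

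The wider pathway was followed in 7 lists that hold none of the 10 genes, with 151 names, of which 150 had a row and 126 were tested. In all, 48 were called higher, 48 lower and 30 neither, with a median log2FC of 0.04, so the lists as a whole moved in both directions at shares near those of all tested genes.

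**Figure D3:**
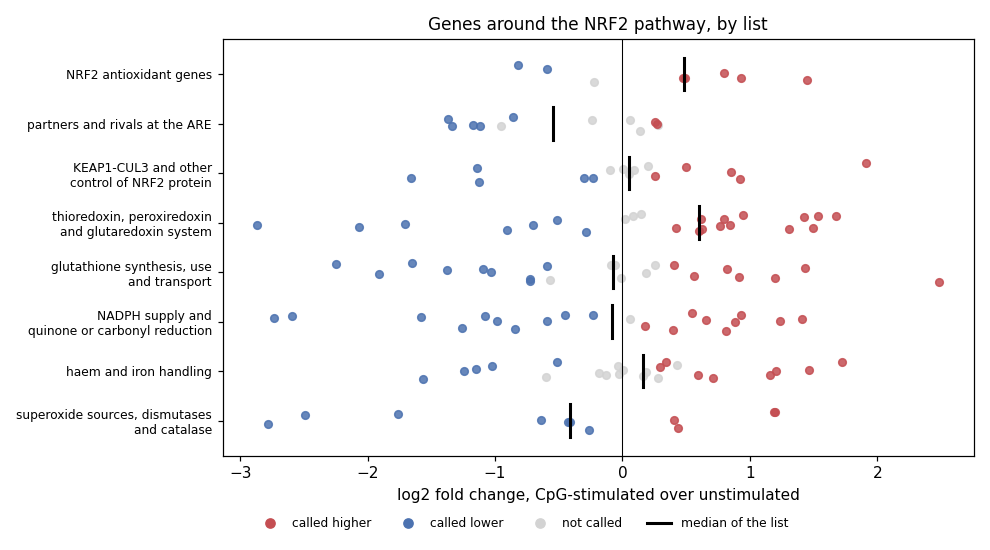
Log2 fold change (x axis) of every tested gene in the 10-gene set and in the 7 pathway lists (rows), with red for genes called higher, blue for lower and grey for neither, and a black bar at the median of each list; points are spread vertically for visibility only. The thioredoxin list has 13 red points of 23, and the medians of the ARE partners and of the superoxide list (-0.55 and -0.41) lie furthest below 0.

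Among the partners and rivals of NRF2 at the ARE, 2 of 12 tested genes were called higher, 5 lower and 5 neither, with a median log2FC of -0.55. The repressors moved apart. Bach2 was at 7.45, 7.32 and 7.38 log2 CPM with CpG and 8.89, 8.60 and 8.76 log2 CPM without (log2FC -1.37, adjusted p = 1.95e-07 by limma), whereas Bach1 was at 6.42, 6.42 and 6.26 log2 CPM with CpG and 6.23, 6.05 and 6.07 log2 CPM without (log2FC 0.25, adjusted p = 0.0125). The small MAF genes were not alike either: Mafk fell (log2FC -0.86, adjusted p = 3.66e-05), Mafg rose (log2FC 0.27, adjusted p = 0.0145), and Maff had a log2FC of 0.06 (adjusted p = 0.631). Chd6, a chromatin remodeller, fell (log2FC -1.34, adjusted p = 1.68e-07). The calls of Bach1 and Mafg rest on single samples: without unstimulated replicate 2 the log2FC of Bach1 was 0.22 (adjusted p = 0.0537), and without unstimulated replicate 3 that of Mafg was 0.19 (adjusted p = 0.0608), and either way 1 gene of the list was called higher.

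Genes that control NRF2 as a protein were divided evenly, with 5 of 15 tested called higher, 5 lower and 5 neither. Cul3, the scaffold of the ligase that KEAP1 recruits, had a log2FC of -0.23 (adjusted p = 0.00347 by limma), and Sqstm1, the autophagy receptor p62 that sequesters KEAP1, one of -0.30 (adjusted p = 0.000795). Larger falls were seen in Gsk3b, a kinase that primes NRF2 for a KEAP1-independent route of degradation (log2FC -1.66, adjusted p = 2.96e-08), and in Syvn1, a ubiquitin ligase of the endoplasmic reticulum (log2FC -1.14, adjusted p = 3.02e-07). Cdkn1a, the cell cycle inhibitor p21, rose most (log2FC 1.91, adjusted p = 3.45e-05), followed by the mitochondrial phosphatase gene Pgam5 (log2FC 0.92, adjusted p = 5.87e-07).

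The list of other thioredoxin, peroxiredoxin and glutaredoxin genes had the highest median, 0.60, with 13 of 23 tested called higher, 7 lower and 3 neither. Sesn2, a stress-inducible sestrin (log2FC 1.68, adjusted p = 3.32e-07 by limma), and Glrx3, a glutaredoxin of iron-sulphur trafficking (log2FC 1.53, adjusted p = 4.30e-06), rose most. Txnip, whose product binds and inhibits thioredoxin, was at 5.19, 5.72 and 5.54 log2 CPM with CpG and 8.16, 8.41 and 8.50 log2 CPM without, a 7.31-fold higher level in unstimulated cells (log2FC -2.87, adjusted p = 5.35e-08). Sesn1, a related sestrin, fell as well (log2FC -2.07, adjusted p = 1.60e-07). Within this system, then, transcripts of the reductase and of thioredoxin rose while those of the thioredoxin inhibitor fell.

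In glutathione metabolism beyond the ligase, 7 of 22 tested genes were called higher, 9 lower and 6 neither (median log2FC -0.07). Gss, which carries out the second step of synthesis, was at 4.20, 3.93 and 4.10 log2 CPM with CpG and 3.31, 3.02 and 3.17 log2 CPM without (log2FC 0.91, adjusted p = 5.57e-05 by limma), so the genes of both steps were higher. Gsr, which regenerates reduced glutathione, had a log2FC of -0.02 (adjusted p = 0.927), and Slc7a11, the cystine carrier and a common NRF2 readout, one of 0.25 (95% interval -1.07 to 1.58, adjusted p = 0.712). Chac1, which degrades glutathione, rose (log2FC 2.49, adjusted p = 6.55e-07), as did Gsto1, an omega-class transferase (log2FC 1.44, adjusted p = 3.03e-06). Gpx4, which reduces lipid peroxides, fell (log2FC -1.10, adjusted p = 1.18e-05), as did Glo1, the glyoxalase that detoxifies methylglyoxal (log2FC -0.72, adjusted p = 0.00405).

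Of the genes of NADPH supply and of quinone or carbonyl reduction, 9 of 20 tested were called higher, 10 lower and 1 neither (median log2FC -0.08). Those named on the higher side were G6pdx (log2FC 0.55, adjusted p = 7.19e-05 by limma) and Pgls (log2FC 1.23, adjusted p = 9.32e-08) of the pentose phosphate pathway, and Mthfd1 of folate metabolism (log2FC 1.41, adjusted p = 2.60e-06). Other genes of NADPH supply on the list were called in both directions. Those named on the lower side were the epoxide hydrolase gene Ephx1, at 5.04 to 5.42 log2 CPM with CpG and 7.72 to 8.05 log2 CPM without (log2FC -2.73, adjusted p = 3.61e-08), and the cytochrome b5 reductase gene Cyb5r3 (log2FC -1.26, adjusted p = 6.11e-07).

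Haem and iron genes surround Hmox1, and ferritin is itself a known NRF2 target. In this list 8 of 23 tested genes were called higher, 5 lower and 10 neither (median log2FC 0.16). The ferritin heavy chain gene Fth1 was at 9.29, 9.66 and 9.17 log2 CPM with CpG and 10.89, 11.05 and 10.86 log2 CPM without (log2FC -1.56, adjusted p = 1.04e-06 by limma), and the light chain gene Ftl1 at 8.70, 9.13 and 8.75 against 9.95, 10.04 and 10.04 log2 CPM (log2FC -1.15, adjusted p = 4.29e-06). Blvrb, a biliverdin reductase downstream of haem oxygenase, fell (log2FC -1.24, adjusted p = 0.000389), while the haem synthesis gene Uros (log2FC 1.72, adjusted p = 4.90e-06) and the haem exporter gene Flvcr1, listed as Mfsd7b (log2FC 1.46, adjusted p = 1.67e-05), rose. Slc40a1, the iron exporter ferroportin, was below the filter, at -3.12 to -0.93 log2 CPM. Fth1, Ftl1 and Blvrb were highest in replicate 2 of both groups, the samples with the high erythroid marker sums, and without both of these samples the list had 8 genes called higher and 6 lower. Ferritin genes, too, have processed copies.

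Among superoxide sources, dismutases and catalase, 4 of 11 tested genes were called higher and 7 lower (median log2FC -0.41). Sod2, the mitochondrial dismutase that turns superoxide into hydrogen peroxide, was at 7.31, 7.05 and 7.18 log2 CPM with CpG and 6.15, 5.91 and 5.92 log2 CPM without (log2FC 1.19, adjusted p = 1.04e-06 by limma). Cat, the peroxisomal enzyme that removes hydrogen peroxide, was at 3.03, 3.72 and 2.94 log2 CPM with CpG and 5.89, 6.02 and 6.13 log2 CPM without, 6.89-fold higher in unstimulated cells (log2FC -2.79, adjusted p = 3.88e-07). Ncf1, a subunit of the phagocyte oxidase, rose (log2FC 1.20, adjusted p = 7.82e-07). The hydrogen peroxide scavengers Prdx1 and Cat thus moved in opposite directions in the same samples.

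**Figure D4:**
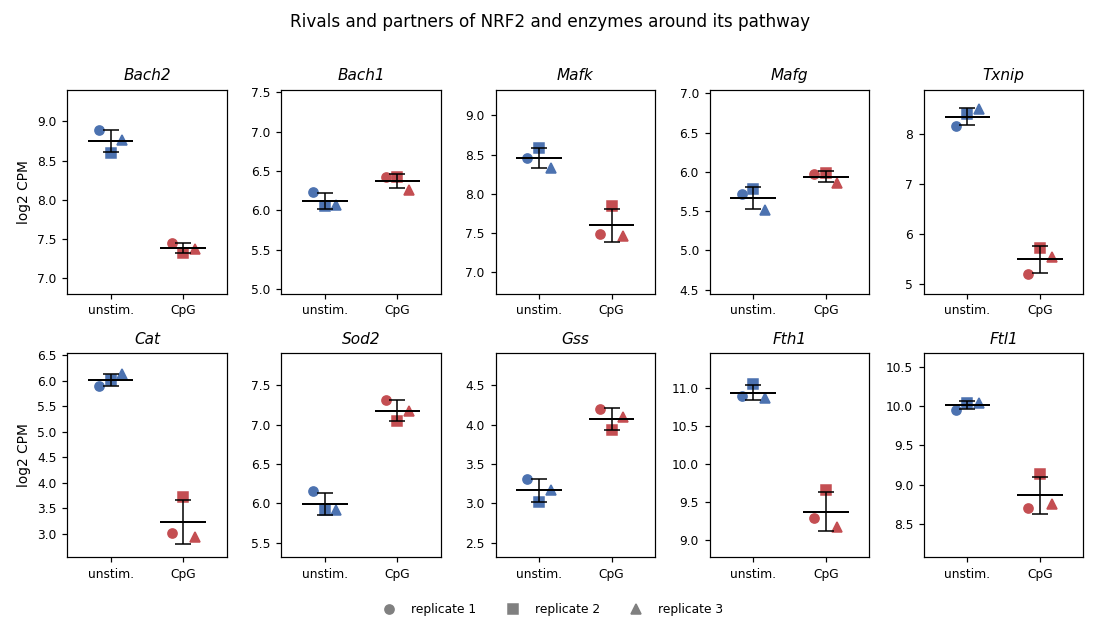
Level in log2 CPM (y axis, a separate range in each panel) of 10 genes from the pathway lists in unstimulated (blue) and CpG-stimulated (red) B cells, with 1 symbol per replicate, a long bar at the mean and error bars of 1 SD (n = 3). Bach2, Mafk, Txnip, Cat, Fth1 and Ftl1 are lower with CpG, and Bach1, Mafg, Sod2 and Gss are higher, with the groups apart in every panel.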

How the data were processed

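RNA-seq values of 6 samples were used, 3 CpG-stimulated and 3 unstimulated, grouped by the sample labels. The authors trimmed reads (Trim Galore 0.6.5, FastQC 0.11.7), aligned them to mm10 with STAR 2.6.1a, counted them per gene with featureCounts (Subread 2.0.1) and applied quantile normalization and voom; the tools and versions are from the submitters' processing notes and the study's methods. The deposited values are log2 CPM, 1 per gene and sample, and not counts, so no count test was run. Summed CPM was 992384 to 1012400 per sample. Depth before normalization is not in the values: the no-read level of -5.15, taken as 0.5 reads, gives the common 17.8 M reads used for the 3-read and 10-read levels, which cover counting error only. Quantile normalization also hides a change in total RNA per cell.

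The groups were fitted in limma 3.58.1 (R 4.3.3, moderated with a mean-variance trend) over 11233 genes above 10 reads in at least 3 samples, with Benjamini-Hochberg adjustment. The script was tested on simulated data. Ratios of gene pairs were compared by exact permutation (scipy 1.17.1). Gene positions and exon lengths are from GENCODE M21 (GRCm38), promoters from RefSeq; older symbols were matched through a RefSeq table. The 10 genes and all lists were chosen with earlier results of these data known. From each pathway list the 2 largest and 2 most negative called log2FC are named, among genes whose mean log2 CPM reached 2, with 16 genes named whatever their values; some genes that this rule names are not reported here.

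The values carry a shift by replicate number: 1481 genes had equal values in same-numbered samples that differed between numbers. A shift shared by same-numbered samples does not alter a log2FC. Its source is not stated, and whether it widened or narrowed the SD between replicates of the tested genes was not tested. Deviations of same-numbered samples from their group means correlated at 0.435, 0.224 and 0.300 (other pairs -0.281 to 0.0279), so the numbers were treated as pairing the samples in the alternative with a replicate block; the shift alone could also give such correlations. Other alternatives were the filter, log2(CPM + 1), the block with no filter (added after the data were seen), each sample or both replicate 2 samples left out, no variance trend, centring on the median, and a test against a log2FC of 0.5 (treat).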

Additional observations from a re-analysis of the deposited data

How the results depend on the processing

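The 5 genes called higher and 2 called lower kept those counts under all alternatives but the test against a log2FC of 0.5, which gave 3 and 1, and the block with no filter described next. With the replicate block the counts were 5 higher and 2 lower, and the block changed no call of a gene named in the text. The block with no filter, added after the data were seen and run for the 10 genes, took away the call of Gclm (adjusted p = 0.0808 by limma) and left Srxn1 at 0.0567, and changed no other call among them. Among other list genes the block with the filter added calls, such as those of Nfe2l1, Gpx1, Fech and Ireb2, chosen here because they changed. Against 0.5, the list counts were 0 higher for ARE partners and rivals, 3 higher and 3 lower for NRF2 protein control, 3 lower for the thioredoxin list, 4 and 4 for glutathione, 5 and 5 for NADPH and quinones, 5 higher for haem and iron, and 2 higher and 3 lower for the superoxide list. The ARE list had 1 to 3 genes called higher when samples were left out. On the log2(CPM + 1) scale the Srxn1 to Prdx1 difference was -1.31, since the added 1 CPM outweighs Srxn1. For genes not called, leaving out samples turned the sign: the log2FC ranged from -0.59 to 0.23 for Hmox1, -0.072 to 0.17 for Maff, -0.51 to 0.83 for Slc7a11 and -0.12 to 0.11 for Gsr. Over 45 single genes, 616 of 637 values kept direction and side of the threshold, 13 in 9 genes lost the call and 8 in 4 genes turned sign. Count-based tests were not run, as the values are not counts. Depth limits Nqo1 and Srxn1, at under 20 reads' worth.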
